A study of Chlamydomonas reinhardtii with 34 samples.

Results

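Transcript levels of 5 ammonium transporter genes, AMT4, AMT5, AMT6, AMT7 and AMT8, were followed through nitrogen removal and an acetate boost in the green alga Chlamydomonas reinhardtii. The genes were found by identifier: AMT4 is Cre13.g569850, AMT5 is Cre09.g400750, AMT6 is Cre07.g355650, AMT7 is Cre02.g111050 and AMT8 is Cre12.g531000. All 5 were present among the 17301 gene models of the table. They were chosen as members of a gene family, but with earlier results of these data known. All 5 passed the filter on low values, a mean of at least 1 RPKM (reads divided by gene model length and library size) over all libraries, but AMT6 did so with a mean of 1.00 RPKM and only through its level in sta6.

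The sta6 strain (CC-4348) carries a lesion in the small subunit of ADP-glucose pyrophosphorylase and makes no starch. It was set against CC-4349, which the labels give by strain name alone. Liquid cultures of both strains grew in light of 25 µmol per square metre per second. The medium was HSM, a minimal medium whose nitrogen source is ammonium chloride. Cells were washed in HSM lacking that salt and were resuspended without nitrogen. Sampling of each strain began with a pre-wash culture and went on 0, 0.5, 2, 4, 8, 12, 24 and 48 h after nitrogen was removed. Acetate was then added, and sampling was repeated at the same 8 intervals, which makes 17 time points. Every strain and time point was 1 library, so the time points of a phase stood in for replicates. Replete denotes the pre-wash and 0 h libraries (n = 2 per strain). Early starvation covers 0.5 to 4 h (n = 3), middle starvation covers 8 and 12 h (n = 2), and late starvation covers 24 h, 48 h and the first boost library at 0 h (n = 3). The early boost covers 0.5 to 4 h after acetate (n = 3), and the late boost covers the 4 libraries between 8 and 48 h (n = 4). A p-value here measures the spread between time points of a culture, not between cultures, and successive samples of a culture depend on each other. For the strain difference over all 17 time points it measures how the gap between the strains varied over time points, again not between cultures.

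AMT proteins are membrane proteins that bring ammonium from the medium into the cell. Glutamine synthetase and glutamate synthase then fix it into amino acids. Chlamydomonas holds a family of AMT genes, and in plants and algae high-affinity members of such families are known to be made when ammonium is scarce and to be shut down when it is plentiful. The sources used here do not assign a separate transport role to each of the 5 genes, so they are ordered below by how their transcripts behaved.

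Depth ran from 5.72 M to 53.9 M reads in sta6 libraries and from 10.7 M to 24.1 M reads in CC-4349 libraries, as recovered from the steps in the low values. Read counts behind the 5 genes ran from 27 to 137891 for AMT4, from 0 to 5438 for AMT5, from 23 to 4654 for AMT8, from 348 to 7512 for AMT7 and from 1 to 488 for AMT6. Intervals and floors built on these reads show the error of counting alone, because PCR copies can inflate reads. The labels were checked on Cre03.g188250, known from general knowledge as the STA6 locus, which lay between 0.957 and 7.45 RPKM in sta6 libraries and between 100.2 and 304 RPKM in CC-4349 libraries. In RNA from whole cultures, fewer cells that transcribe a gene and less transcript per cell cannot be told apart.

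AMT4, AMT5 and AMT8 were low before the wash and high from 0.5 h without nitrogen to the end of the course in both strains. AMT7 was already high before the wash and lower in the first 4 h, and later returned to its replete level in sta6 but not in CC-4349. AMT6 was the lowest of the 5 from 0.5 h onward, and its level separated the strains.

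**Figure D1:**
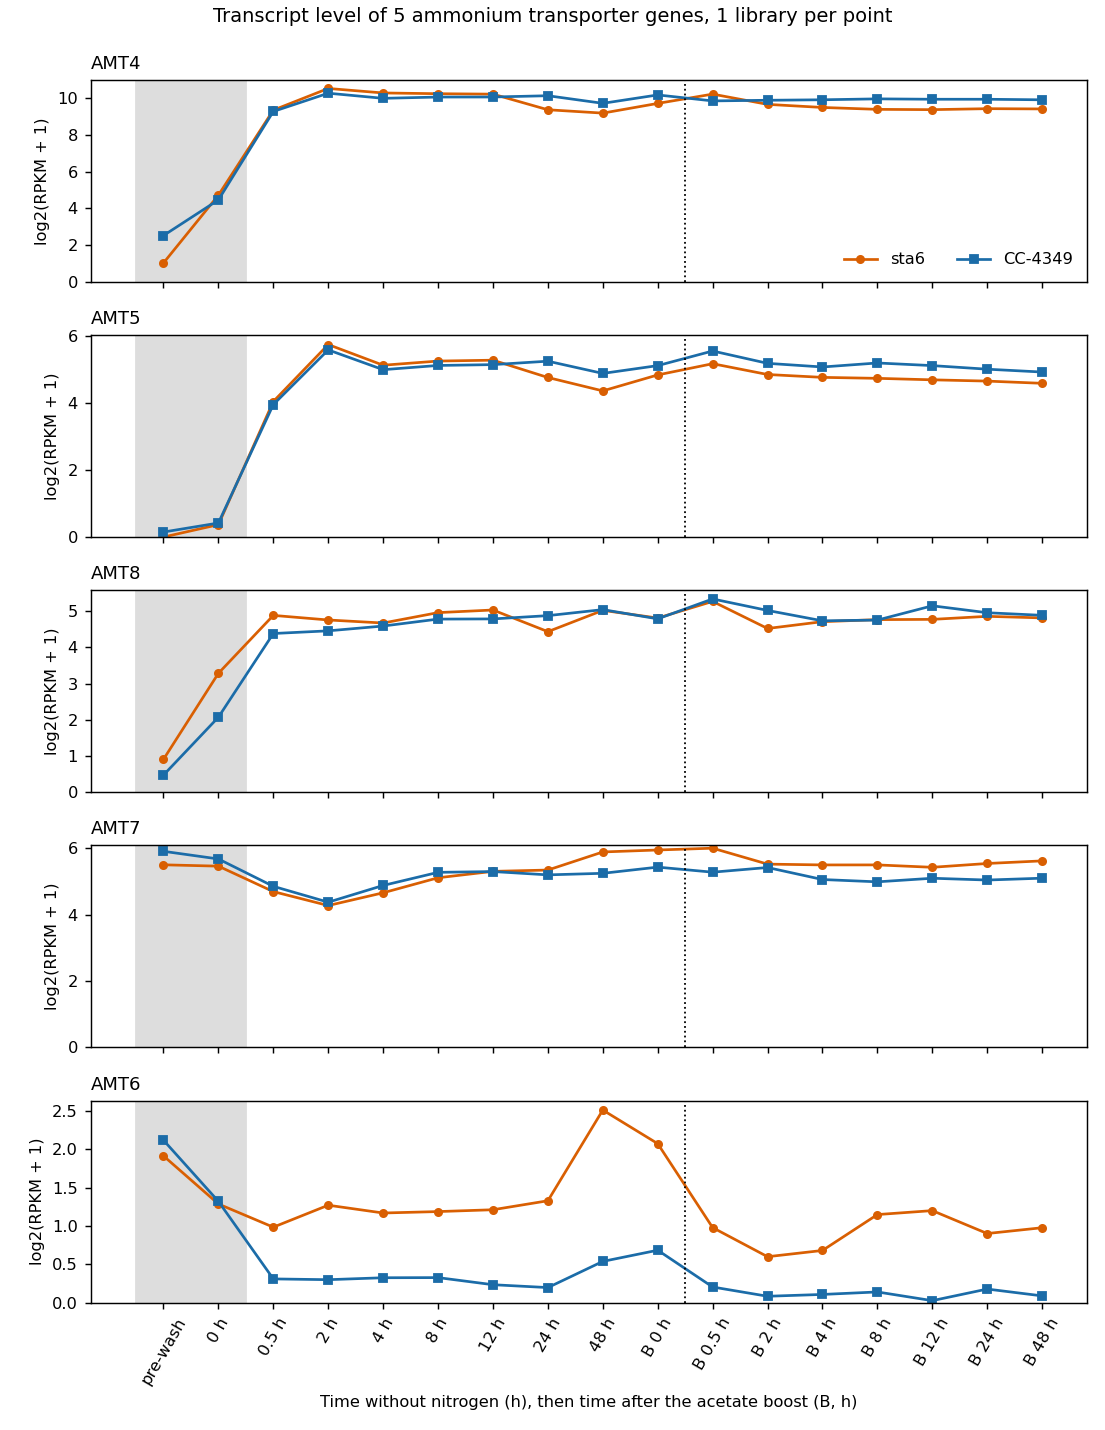
Levels of the 5 genes as log2(RPKM + 1) at 17 time points, 1 library per point, for sta6 (orange circles) and CC-4349 (blue squares). The grey band marks the replete libraries and the dotted line the start of the boost. AMT4, AMT5 and AMT8 rise by 0.5 h in both strains, whereas AMT6 stays higher in sta6 from 0.5 h onward.

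AMT4 had 1.04 RPKM before the wash and 25.4 RPKM at 0 h in sta6, against 4.75 and 21.1 RPKM at the same points in CC-4349. At 0.5, 2 and 4 h it had 658, 1492 and 1259 RPKM in sta6, against 625, 1247 and 1028 RPKM in CC-4349. Both strains therefore held their highest AMT4 level at 2 h, and no library after 0 h came near a replete one. In middle starvation (8 and 12 h) AMT4 had 1223 and 1204 RPKM in sta6, against 1079 and 1081 RPKM in CC-4349. At 24 h, 48 h and 0 h of the boost it had 667, 587 and 848 RPKM in sta6, against 1134, 850.5 and 1168 RPKM in CC-4349. The sta6 values of these late libraries lay below all its middle ones, whereas the late CC-4349 values lay on either side of the middle ones.

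AMT5 had 0 reads before the wash in sta6, where 3 reads would have been 0.0888 RPKM, and 0.293 RPKM at 0 h. In CC-4349 it had 0.109 RPKM before the wash and 0.338 RPKM at 0 h, from 8 and 16 reads. At 0.5, 2 and 4 h AMT5 had 15.6, 52.9 and 34.1 RPKM in sta6, against 14.5, 47.2 and 31.0 RPKM in CC-4349. As with AMT4, the highest level of each strain came at 2 h. Over 8 and 12 h AMT5 had 37.3 and 38.0 RPKM in sta6, against 33.9 and 34.5 RPKM in CC-4349. At 24 h, 48 h and 0 h of the boost it had 26.2, 19.6 and 27.7 RPKM in sta6, against 37.2, 28.6 and 33.8 RPKM in CC-4349. At each of these last 3 points the sta6 library was the lower.

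AMT8 had 0.878 RPKM before the wash and 8.75 RPKM at 0 h in sta6, against 0.389 and 3.21 RPKM in CC-4349. At 0.5, 2 and 4 h it had 28.6, 26.1 and 24.5 RPKM in sta6, against 19.9, 21.0 and 23.1 RPKM in CC-4349. AMT8 thus made most of its rise by 0.5 h, with no peak at 2 h in either strain. Across 8, 12, 24 and 48 h AMT8 had 30.2, 31.8, 20.6 and 31.5 RPKM in sta6, against 26.5, 26.6, 28.4 and 32.0 RPKM in CC-4349. Both strains reached their highest AMT8 level at 0.5 h of the boost, with 37.6 RPKM in sta6, against 39.5 RPKM in CC-4349.

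Onset was read as the first time point without nitrogen at which log2(RPKM + 1) stood at least 1 above both replete libraries of the strain, provided that the next time point did so as well. By this rule AMT4, AMT5 and AMT8 had their onset at 0.5 h in both strains, which was the first sample after 0 h. The rule counts 0 h as replete, so 0.5 h was the earliest onset it could give. The 0 h sample already stood above the pre-wash sample for AMT4, 24.4-fold in sta6 and 4.45-fold in CC-4349. AMT8 was likewise 9.97-fold higher at 0 h than before the wash in sta6 and 8.25-fold higher in CC-4349. The first step after 0 h was larger for AMT4, which at 0.5 h was 25.8-fold above its 0 h level in sta6 and 29.6-fold above it in CC-4349. AMT5 at 0.5 h was 53.2-fold above its 0 h level in sta6 and 43.1-fold above it in CC-4349. AMT8 made the smallest step of the 3 genes, 3.26-fold in sta6 and 6.20-fold in CC-4349.

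Set against the late starvation mean of the same strain, the 3 genes stood at different percentages at 0.5 h. At 0.5 h AMT8 stood at 108% of that mean in sta6 and 68.5% in CC-4349. AMT4 stood at 93.9% in sta6 and 59.5% in CC-4349, and AMT5 at 63.4% in sta6 and 43.8% in CC-4349. In both strains AMT8 was thus the furthest along at 0.5 h and AMT5 the least. At 2 h AMT5 and AMT4 stood above their late means, AMT5 at 216% in sta6 and 142% in CC-4349 and AMT4 at 213% in sta6 and 119% in CC-4349. With 1 library per point these percentages carry no replicate error. They also do not compare the strains, because the late mean differed between them. It was 701 RPKM for AMT4, 24.5 RPKM for AMT5 and 26.4 RPKM for AMT8 in sta6, against 1051, 33.2 and 29.0 RPKM in CC-4349.

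**Figure D2:**
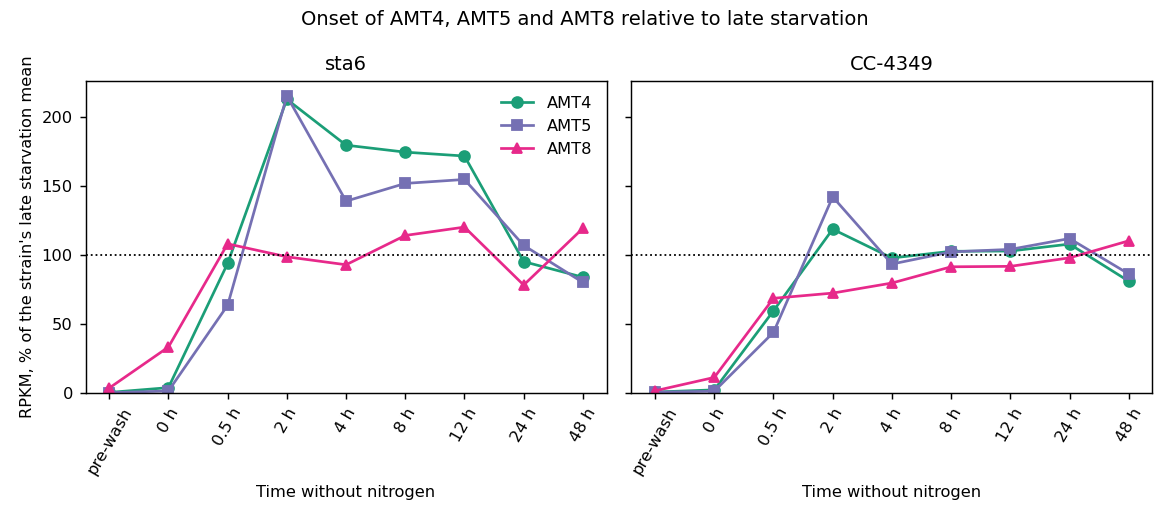
Levels of AMT4 (green circles), AMT5 (purple squares) and AMT8 (pink triangles) from pre-wash to 48 h without nitrogen, in percent of the mean late starvation RPKM of the same strain, sta6 on the left and CC-4349 on the right. The dotted line marks 100%. At 2 h AMT5 stands at 216% in sta6 and 142% in CC-4349.

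Early starvation was compared with the replete phase over both strains with limma on log2(RPKM + 1), and a call needed an adjusted p under 0.05 and a change of at least 2-fold. Of the 5 genes 3 rose and 1 fell, in a comparison that called 12.1% of the 14513 genes tested, 7.38% higher and 4.73% lower. AMT4 rose by 6.78 on the log2 scale (SE 0.41, adjusted p = 5.41e-12), the change of greatest size among all genes tested. Its mean was 1136 ± 431 RPKM in early starvation and 13.2 ± 17.3 RPKM in replete cells of sta6 (SD, n = 3 and n = 2), an 85.8-fold difference. In CC-4349 the means were 967 ± 316 RPKM in early starvation and 12.9 ± 11.6 RPKM in replete cells (SD, n = 3 and n = 2), a 74.7-fold difference. These folds depend on which replete library is taken. Against the pre-wash library alone the early mean was 1092-fold higher in sta6 and 203-fold higher in CC-4349, and against the 0 h library alone 44.7-fold and 45.7-fold higher. The log2 change of AMT4 over both strains was 5.85 without the sta6 pre-wash library and 7.70 without the sta6 0 h library. AMT5 rose by 4.68 (SE 0.24, adjusted p = 1.77e-13), and ranked 10 by size. AMT8 rose by 2.94 (SE 0.29, adjusted p = 2.61e-08) and ranked 75, with 2.35 without the sta6 pre-wash and 3.53 without the sta6 0 h library. The replete and early starvation libraries of these 3 genes did not overlap in either strain. The share of all genes tested without such overlap was not counted, and groups of 2 and 3 libraries can separate easily.

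The 3 genes were called higher in the later phases as well. In middle starvation 3 of 5 genes rose, against 13.2% of all genes tested called higher, 6.46% called lower and 19.6% called in either direction. AMT4 was higher by 6.98 (SE 0.45), AMT5 by 4.97 (SE 0.27) and AMT8 by 3.21 (SE 0.32), with adjusted p of 9.35e-12, 8.57e-13 and 1.21e-08. In late starvation the same 3 rose, against 18.4% of all genes called higher, 11.5% called lower and 29.9% called in either direction. The late change was 6.54 for AMT4 (SE 0.41, adjusted p = 1.31e-12, rank 8), 4.64 for AMT5 (SE 0.24, adjusted p = 7.80e-14, rank 63) and 3.15 for AMT8 (SE 0.29, adjusted p = 8.07e-10, rank 279). All genes tested had a median change of 0.23 in early, 0.24 in middle and 0.26 in late starvation, and scaling by the median of ratios brought these medians to 0.04, 0.01 and 0.01. The changes of the 3 genes were many times that shift.

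**Figure D3:**
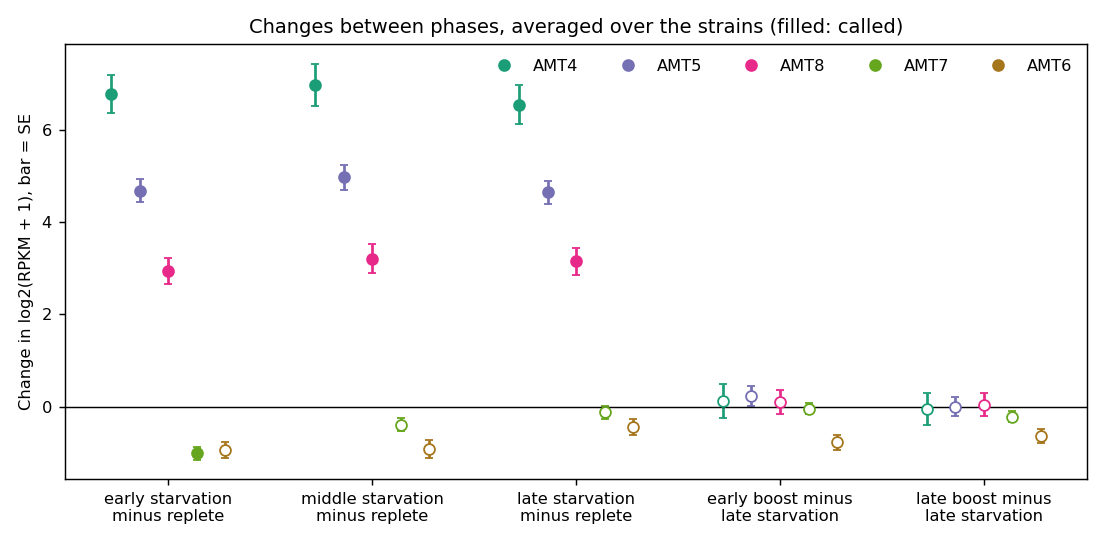
Changes of the 5 genes between phases, averaged over the strains, on the log2(RPKM + 1) scale with their standard errors from the limma fit. Filled points passed both thresholds. AMT4, AMT5 and AMT8 lie between 2.94 and 6.98 in the 3 starvation comparisons, and no gene passed in the 2 boost comparisons.

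AMT7 was the most abundant of the 5 before the wash, with 44.5 RPKM in sta6, against 59.3 RPKM in CC-4349, and it had 43.2 and 50.4 RPKM at 0 h. At 0.5, 2 and 4 h without nitrogen AMT7 had 25.0, 18.4 and 24.3 RPKM in sta6, against 28.0, 19.8 and 28.5 RPKM in CC-4349. All 6 of these libraries lay below all 4 replete ones, though the share of all genes that did so was not counted. The lowest level of each strain came at 2 h, when AMT4 and AMT5 were at their highest. The early change of -1.02 passed the test (SE 0.14, adjusted p = 2.92e-06) but lay close to the 2-fold limit. It came to -0.96, -0.93 and -0.95 without the CC-4349 pre-wash, the CC-4349 2 h or the sta6 2 h library and then missed the limit. AMT7 had 33.7 and 38.7 RPKM at 8 and 12 h in sta6, against 37.9 and 38.5 RPKM in CC-4349. At 24 h, 48 h and 0 h of the boost it had 39.8, 58.5 and 61 RPKM in sta6, against 35.9, 37.1 and 42.3 RPKM in CC-4349. No CC-4349 library after 0 h reached the lower of its replete levels, whereas the last 2 of these sta6 libraries lay above both of theirs. The late starvation change over both strains was -0.13 (SE 0.14, adjusted p = 0.418), with the sta6 mean above its replete mean and the CC-4349 mean below its own.

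AMT6 was a gene of low level throughout. It had 2.77 RPKM before the wash and 1.44 RPKM at 0 h in sta6, against 3.34 and 1.5 RPKM in CC-4349. At 0.5, 2 and 4 h it had 0.979, 1.41 and 1.25 RPKM in sta6, from 29 to 158 reads, against 0.239, 0.231 and 0.253 RPKM in CC-4349, from 10 to 16 reads. The strains were alike within counting error before and at 0 h and apart at each of these 3 points. AMT6 had 1.28 and 1.32 RPKM at 8 and 12 h in sta6, against 0.254 and 0.176 RPKM in CC-4349. In late starvation it had 1.51, 4.71 and 3.21 RPKM at 24 h, 48 h and 0 h of the boost in sta6, against 0.146, 0.452 and 0.607 RPKM in CC-4349. In both strains the 48 h level was thus above the 24 h level, 3.11-fold in sta6 and 3.09-fold in CC-4349.

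The onset rule gave a fall of AMT6 at 0.5 h in CC-4349 and none in sta6. Over both strains AMT6 changed by -0.93 in early starvation (SE 0.17, adjusted p = 0.000174), by -0.92 in middle starvation (SE 0.19, adjusted p = 0.00028) and by -0.44 in late starvation (SE 0.17, adjusted p = 0.0304), each short of the 2-fold limit. These calls turn on the setting: AMT6 passed in early and middle starvation with median-of-ratios scaling (-1.07 and -1.08), quantile normalization (-1.25 and -1.38), a pseudocount of 0.1 (-1.74 and -1.75) and voom (-1.97 and -2.02). It also passed in both without the 0 h and boost 0.5 h libraries (-1.29 and -1.28), without the CC-4349 0 h library (-1.13 and -1.12) and without the sta6 0 h library (-1.09 and -1.08). In late starvation voom alone called it (-1.10, adjusted p = 0.00962). The log2(RPKM + 1) scale understates the change of so low a gene, since the mean in CC-4349 was 0.241 ± 0.011 RPKM in early starvation and 2.42 ± 1.31 RPKM in replete cells (SD, n = 3 and n = 2), 10.1-fold lower.

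**Figure D4:**
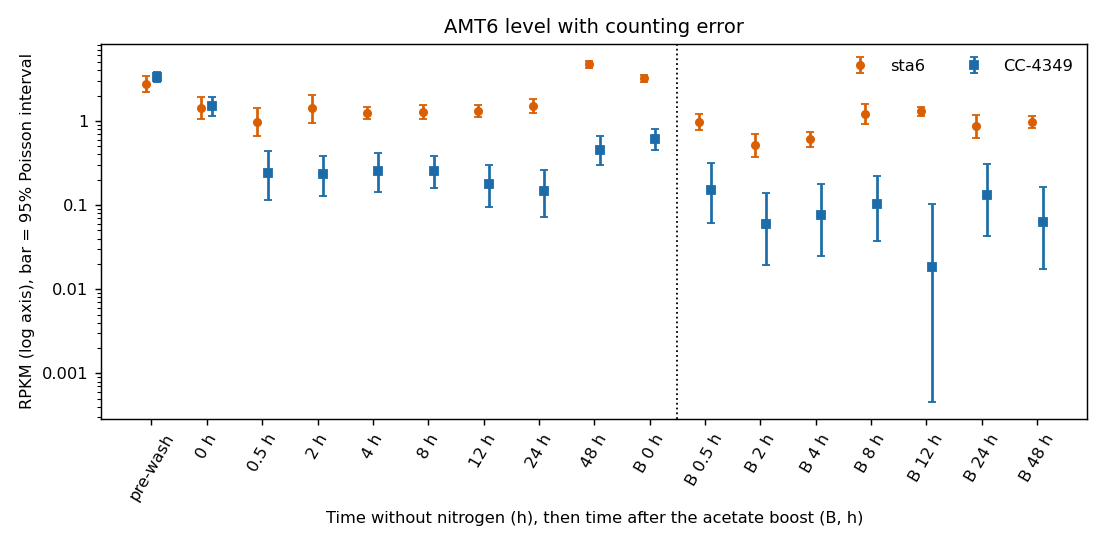
AMT6 RPKM on a log axis at 17 time points with exact Poisson 95% intervals of the reads, for sta6 (orange circles) and CC-4349 (blue squares). The dotted line marks the start of the boost. The intervals of the strains overlap before the wash and at 0 h, and the lowest point, 1 read in CC-4349 at 12 h of the boost, is 0.0182 RPKM.

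The boost changed little in the 3 induced genes. At 0.5, 2 and 4 h of the boost AMT4 had 1205, 817 and 727 RPKM in sta6, against 932, 955 and 973 RPKM in CC-4349. AMT5 had 35.2, 28.0 and 26.3 RPKM in sta6, against 46.1, 35.5 and 32.9 RPKM in CC-4349. AMT8 had 37.6, 22.0 and 25.2 RPKM in sta6, against 39.5, 31.5 and 25.6 RPKM in CC-4349. At 0.5 h all 3 genes in sta6, and AMT5 and AMT8 in CC-4349, stood above each of the 3 late starvation libraries of the strain. AMT4 in CC-4349 did not. The share of all genes tested that did so was not counted, and a single library can easily exceed 3 others. AMT7 had 63.4, 45.2 and 44.4 RPKM in sta6, against 38.0, 42.0 and 32.4 RPKM in CC-4349.

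Limma called 0 of the 5 genes between early boost and late starvation, while it called 1.28% of all genes tested, 0.2% higher and 1.08% lower. Of the 5 genes 1 had an unadjusted p under 0.05. Voom on the recovered reads called 1 of the 5, and 546 genes in all. Here and below, percentages of all genes tested are those of limma calls. The share of all genes at an unadjusted p under 0.05 was not counted. The changes were 0.12 for AMT4 (SE 0.37), 0.23 for AMT5 (SE 0.22), 0.10 for AMT8 (SE 0.26) and -0.05 for AMT7 (SE 0.12). AMT6 differed by -0.78 (SE 0.16, adjusted p = 0.0023), short of the 2-fold limit, and it was the gene that voom called. AMT6 had 0.971, 0.515 and 0.603 RPKM at 0.5, 2 and 4 h of the boost in sta6, against 0.152, 0.0594 and 0.0770 RPKM in CC-4349. These values lay below every late starvation library of sta6, and in CC-4349 the 0.5 h value lay just above the 24 h one. The early boost mean was 4.51-fold lower than the late starvation mean in sta6 and 4.18-fold lower in CC-4349.

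The late boost, compared with late starvation, likewise gave 0 of 5 calls with limma, against 0.579% of all genes tested, 0.324% higher and 0.255% lower. Of the 5 genes 1 had an unadjusted p under 0.05. Voom called 1 of the 5, and 160 genes in all. AMT4 differed by -0.05 (SE 0.35), AMT5 by -0.0038 (SE 0.20), AMT8 by 0.04 (SE 0.24) and AMT7 by -0.22 (SE 0.11). AMT6 differed by -0.64 (SE 0.15, adjusted p = 0.0144) and was again the gene called by voom. From 8 h of the boost the levels of AMT4 hardly moved within a strain, with a coefficient of variation of 1.65% in sta6 and 1.46% in CC-4349 over 4 libraries.

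The strains were first compared over all 17 time points with the time point as a block. Limma called 0 of the 5 genes, while it called 5.83% of all genes tested, 2.76% higher and 3.07% lower in sta6. An unadjusted p under 0.05 was found for 4 of the 5, a share not counted over all genes. Voom called 1 of the 5, and 1272 genes in all. AMT6 in sta6 stood above CC-4349 at 15 of the 17 time points and by 0.84 on average (SE 0.12, adjusted p = 7.73e-06), which is under 2-fold on this scale. With a pseudocount of 0.1 in place of 1 the AMT6 difference was 2.06, and with voom it was 2.30, and both passed. AMT6 was tested only because its sta6 level carried it past the filter, which limits every strain comparison of AMT6 below as well. AMT5 differed by -0.20 (SE 0.06, adjusted p = 0.013) and was lower in sta6 at 12 of 17 time points. AMT4 differed by -0.26 (SE 0.11, adjusted p = 0.066), AMT7 by 0.19 (SE 0.09, adjusted p = 0.0793) and AMT8 by 0.08 (SE 0.09, adjusted p = 0.498).

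These averages held opposite parts of the course. From 0.5 to 12 h AMT4, AMT5 and AMT8 were each higher in sta6 at 5 of 5 time points, with median ratios of sta6 to CC-4349 of 1.13, 1.1 and 1.19. From 24 h onward AMT4 was lower in sta6 at 9 of 10 time points, with a median ratio of 0.704. AMT5 was lower in sta6 at 10 of 10 with a median ratio of 0.769, and AMT8 at 8 of 10 with a median ratio of 0.951. AMT7 ran the other way and stood above CC-4349 at all 10 time points from 24 h, with a median ratio of 1.43, against 1 of 5 time points from 0.5 to 12 h. The windows were chosen after the values were seen, so the counts are a description.

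**Figure D5:**
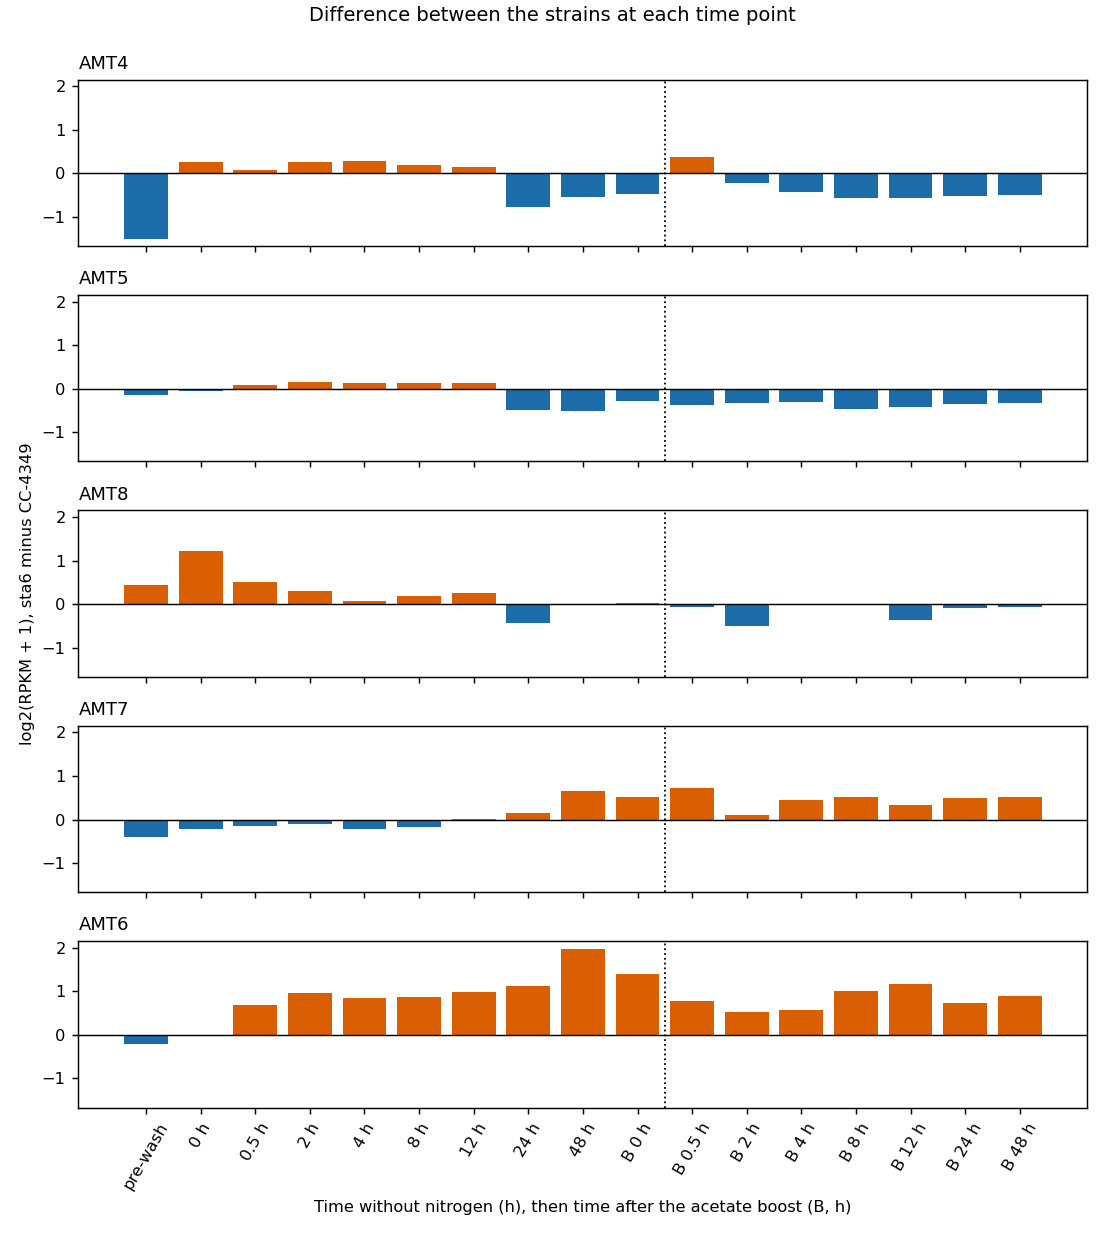
Difference in log2(RPKM + 1), sta6 minus CC-4349, at each time point for the 5 genes, with orange bars above 0 and blue bars below 0. The dotted line marks the start of the boost. From 24 h onward AMT5 is lower and AMT6 and AMT7 are higher in sta6 at 10 of 10 time points.

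AMT6 was the gene with the widest gap between the strains. Its ratio of sta6 to CC-4349 was 0.828 before the wash and 0.961 at 0 h, with 95% counting intervals from 0.635 to 1.07 and from 0.646 to 1.42. At 0.5 h the ratio was 4.09, with an interval from 1.94 to 9.40, and the interval lay above 1 at all 15 time points from then on. At 48 h the ratio was 10.4 with an interval from 7.02 to 16.1. The highest ratio, 71.2 at 12 h of the boost, rests on 1 read in CC-4349 and has an interval from 12.7 to 2824. Over the 4 late boost libraries AMT6 averaged 1.09 ± 0.203 RPKM in sta6, against 0.0784 ± 0.0488 RPKM in CC-4349 (SD, n = 4 each), from 485 and 16 reads.

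The difference between the strains in the response itself was tested as an interaction. For late starvation against replete, 1 of 5 genes was called higher in sta6 than in CC-4349, against 0.958% of all genes called higher, 1.9% called lower and 2.86% called in either direction. That gene was AMT6, at 1.62 with an SE of 0.35 (adjusted p = 0.00648). AMT6 passed the filter only through sta6, with a mean of 1.55 RPKM over 17 libraries, against 0.459 RPKM in CC-4349. The call is therefore no independent support for a strain difference. Leaving out the CC-4349 pre-wash library ended this call (1.22, adjusted p = 0.0724), as did leaving out the sta6 0 h library (1.30, adjusted p = 0.0795). AMT6 averaged 3.14 ± 1.60 RPKM in late starvation and 2.11 ± 0.940 RPKM in replete cells of sta6 (SD, n = 3 and n = 2). In CC-4349 it averaged 0.402 ± 0.234 RPKM in late starvation and 2.42 ± 1.31 RPKM in replete cells (SD, n = 3 and n = 2). The interaction was 0.75 for AMT7 (SE 0.27, adjusted p = 0.159), and a random replicate block for the time point brought its adjusted p to 0.00787, still under 2-fold. For AMT4 it was 0.03 with an SE of 0.83, for AMT5 -0.33 with an SE of 0.49 and for AMT8 -0.97 with an SE of 0.58. Without the sta6 pre-wash library the AMT8 value became -2.16 and passed (adjusted p = 0.00542).

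In early starvation limma called 0 of 5 interactions, with 1 at an unadjusted p under 0.05 and 0 by voom, against 0.11% of all genes tested, 0.0207% higher and 0.0896% lower. AMT6 had the value nearest to a call, 0.95 (SE 0.35, adjusted p = 0.536), and with the time point as a random replicate block its adjusted p was 0.0262, still under 2-fold. For early boost against late starvation the count was also 0 of 5 with limma, with 1 at an unadjusted p under 0.05 and 0 by voom, against 0.00689% of all genes tested, which is 1 gene. AMT6 again had the largest value, -0.88 (SE 0.31, adjusted p = 1.00).

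The late boost gave 4 libraries per strain and was compared between the strains after the values had been seen. AMT4 had 677, 669, 695 and 688 RPKM at 8, 12, 24 and 48 h in sta6, against 1007, 992, 992 and 972 RPKM in CC-4349. AMT5 had 25.8, 24.9, 24.3 and 23.1 RPKM in sta6, against 35.8, 33.8, 31.3 and 29.5 RPKM in CC-4349. AMT7 had 44.4, 42.2, 45.8 and 48.4 RPKM in sta6, against 30.9, 33.3, 32.1 and 33.4 RPKM in CC-4349. For AMT4 and AMT5 every sta6 library lay below every CC-4349 library, and for AMT7 and AMT6 every one lay above. The share of all genes tested that separated in this way was not counted, so this is a description only. AMT8 had 26.3, 26.4, 28.0 and 27.2 RPKM in sta6, against 26.0, 34.5, 30.1 and 28.6 RPKM in CC-4349, and overlapped.

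Limma, which pools the spread over all 12 groups, gave AMT6 a difference of 0.95 (SE 0.19, adjusted p = 0.000596) and AMT7 one of 0.47 (SE 0.15, adjusted p = 0.0301). For AMT4 limma gave -0.54 (SE 0.45, adjusted p = 0.486) and for AMT5 -0.39 (SE 0.27, adjusted p = 0.367). The SE of AMT4 pools in groups that varied far more, such as replete sta6 cells at 1.04 and 25.4 RPKM. Within the late boost its coefficient of variation was 1.65% in sta6 and 1.46% in CC-4349. The adjusted p of AMT4 therefore does not measure the spread within the late boost. At 2-fold limma called 0 of the 5 genes, against 7.63% of all genes tested, 3.84% higher and 3.78% lower in sta6. Of the 5 genes 2 had an unadjusted p under 0.05. Voom called 1 of the 5, and 1557 genes in all.

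Levels can be compared between the genes because RPKM is per length. The summed level of the 5 genes was between 49.2 and 79.1 RPKM in the 4 replete libraries, and between 687 and 1591 RPKM, with a median of 1064 RPKM, in the 30 libraries from 0.5 h onward. AMT7 made up between 54.6% and 90.5% of the sum in replete libraries and AMT4 between 2.12% and 32.1%. From 0.5 h onward AMT4 made up between 83.7% and 93.8%, with a median of 90.8%, and AMT7 between 1.16% and 8.34%. AMT4 was thus the highest of the 5 in all 30 of these libraries, and AMT6 was the lowest in all 30.

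AMT5, AMT7 and AMT8 did not hold a fixed order between these ends. From 0.5 h onward AMT7 averaged 42.2 ± 13.1 RPKM, AMT5 29.3 ± 9.07 RPKM and AMT8 27.5 ± 4.16 RPKM in sta6 (SD, n = 15). In CC-4349 AMT7 averaged 34 ± 5.86 RPKM, AMT5 33.7 ± 7.47 RPKM and AMT8 28.0 ± 5.08 RPKM (SD, n = 15). The means of neighbours in this order lay closer together than either SD over time points, with exceptions in both strains. The gaps of AMT7 and AMT5 in sta6 and of AMT5 and AMT8 in CC-4349 lay between the SDs of the pair. The order AMT7, AMT5, AMT8 was found in 11 libraries and AMT7, AMT8, AMT5 in 8, and the other 11 were divided among 4 orders. AMT4 was between 20.2 and 43.0 times as high as AMT5 from 0.5 h onward, with a median of 29.8.

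The likeness of the courses was described by Pearson's r on log2(RPKM + 1) over the 34 libraries, which share cultures and successive times, and again over the 30 libraries without the replete ones. AMT4 and AMT5 had r = 0.97 over 34 and 0.86 over 30 libraries, and AMT5 was the second most like AMT4 of all genes tested. AMT4 and AMT8 had r = 0.96 over 34 but 0.17 over 30 libraries, and AMT5 and AMT8 had 0.92 and 0.26. The likeness of AMT8 to the other induced genes thus lay in the step between replete and starved cells, while AMT4 and AMT5 also varied together afterwards. AMT7 had r = -0.37 with AMT4 over 34 and -0.42 over 30 libraries. AMT6 and AMT7 had r = 0.48 and 0.38.

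Genes outside the family were named by their r over the 34 libraries. Cre01.g012950 was the most like both AMT4 (r = 0.97) and AMT5 (r = 0.98), and Cre01.g072150 followed for AMT4 (r = 0.96) and Cre17.g714450 for AMT5 (r = 0.97). For AMT8 they were Cre03.g182700 (r = 0.96) and Cre06.g278550 (r = 0.96). For AMT6 they were Cre02.g126083 (r = 0.83), Cre02.g117179 (r = 0.81) and Cre16.g694550 (r = 0.77). For AMT7 they were Cre01.g034380 (r = 0.83), Cre14.g613134 (r = 0.82) and Cre01.g043000 (r = 0.81). Over the 34 libraries the highest r of AMT6 and AMT7 was therefore lower than that of the induced genes. Without the replete libraries r was 0.76 for Cre01.g012950 with both AMT4 and AMT5, 0.10 for Cre01.g072150 with AMT4 and 0.64 for Cre17.g714450 with AMT5. It was 0.58 for Cre03.g182700 and 0.52 for Cre06.g278550 with AMT8. For the genes named for AMT6 and AMT7 it lay between 0.80 and 0.93. The sources used here give no names for these identifiers.

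Models next to each gene in the RefSeq order (assembly Chlamydomonas_reinhardtii_v5.5) were looked at because no source used here gives the counting rule or the strand setting. Of the 10 neighbours 1 overlapped a transporter, Cre12.g531050 beside AMT8, and the reads of the shared stretch may count for either model. Cre12.g531050 lay between 0.334 and 2.81 RPKM, far below AMT8 from 0.5 h onward, and had r = 0.58 with it. Its part in the AMT8 values was not tested.

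Other genes of nitrogen uptake and assimilation were taken by identifier from general knowledge, 20 loci in 3 lists, of which 19 were in the table and 18 were tested. Of 9 loci listed for ammonium assimilation 3 rose and 1 fell in early starvation, where 7.38% of all genes tested were called higher and 4.73% lower. In late starvation 5 of the 9 rose and 1 fell, where 18.4% of all genes were called higher and 11.5% lower. Their median change was 0.71 in early and 1.11 in late starvation, against 0.23 and 0.26 for all genes tested. Of 6 tested loci listed for nitrate uptake and reduction 3 rose in early and 4 in late starvation, beside the same shares of all genes, with medians of 2.22 and 2.87. Among these Cre09.g410850 averaged 56.1 RPKM in early starvation and 0.152 RPKM in replete cells of sta6, and 46.0 and 0.221 RPKM in CC-4349, a change of 5.04 (SE 0.40, adjusted p = 5.12e-10).

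The last list held loci taken as relatives of the ammonium transporter family. The sources used here give no role for them, so their transport of ammonium was not established. Of its 3 tested loci 1 rose and 1 fell in early starvation, where 12.1% of all genes tested were called in either direction. In late starvation 2 rose and 1 fell, where 29.9% of all genes tested were called. Cre03.g159254 averaged 73.7 RPKM in early and 512 RPKM in late starvation in sta6, with 4.90 RPKM in replete cells. In CC-4349 it averaged 97.4 RPKM in early and 511 RPKM in late starvation, with 6.01 RPKM in replete cells. This locus rose by 2.86 in early and 6.29 in late starvation (adjusted p = 0.000782 and 2.98e-09). Its lowest early library had 6.16 RPKM in sta6, against 5.81 RPKM in CC-4349. Its course matched that of the model Cre03.g159250 (r = 1.00), so the reads of this pair may be split between them. Cre06.g284100 ran against the induced genes and changed by -3.09 in early starvation (SE 0.32, adjusted p = 6.91e-08), with means of 3.86 RPKM in early starvation and 41.0 RPKM in replete cells of sta6, and 0.887 and 12.3 RPKM in CC-4349.

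In the early boost limma called 0 of the 18 loci, with 1 at an unadjusted p under 0.05 and 0 by voom, against 1.28% of all genes tested. In the late boost, where 0.579% of all genes were called, it called 1 of 18, Cre06.g284100, which rose by 1.04 (SE 0.27, adjusted p = 0.0345) and which voom did not call. Over all time points 2 of the 18 differed between the strains, against 5.83% of all genes: Cre12.g530600 was lower in sta6 by a log2 difference of -4.47 (SE 0.29, adjusted p = 1.44e-10), and Cre06.g284100 was higher by 1.31 (SE 0.17, adjusted p = 3.96e-06). In the late boost Cre12.g530600 averaged 18.9 ± 2.03 RPKM in sta6, against 545 ± 22.2 RPKM in CC-4349 (SD, n = 4 each). For late starvation by strain limma called 1 of the 18, against 2.86% of all genes, again Cre12.g530600, at -3.89 (SE 0.94, adjusted p = 0.0173), with 2 at an unadjusted p under 0.05 and 0 by voom.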

How the data were processed

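RNA of 34 libraries was sequenced, 17 of sta6 and 17 of CC-4349. The deposited table covers 17301 gene models. Its header names no unit, and its values were taken as RPKM computed by the authors, because low values step by a fixed amount per model length and library. Bowtie was used, per the submitters' processing notes, with no version. Genome build, annotation, counting rule and strand setting were not given in the sources used here. One column, sta6 at 24 h of the boost, differs from its label in the end of its name.

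Whole reads and model lengths were recovered from these steps (tolerance 0.02 reads) in 16967 of the 17009 models with any value (99.8%). The recovery and the fits were tested on simulated data.

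Models with a mean of at least 1 RPKM were tested, 14513 in all, on log2(RPKM + 1) with limma (version 3.58.1, under R 4.3.3), using a trended empirical Bayes prior and Benjamini-Hochberg adjustment over all of them. The strain difference used the time point as a block. All other contrasts used a single fit to the 12 combinations of strain and phase, leaving 22 residual degrees of freedom. Genes were called at an adjusted p under 0.05 and a minimum change of 2-fold. The strain difference in the late boost and voom on the recovered reads were added after the values were seen. The members and lists were chosen with earlier results of these data known. The genes named are the 5 members, for each the 3 tested models with the highest Pearson r, and loci of the pathway lists. The neighbours and the STA6 check locus were chosen in addition. The reference table matched 12666 of 17301 identifiers (73.2%), all 5 members included, and gives no other names. Libraries of the same time point in the 2 strains were correlated (limma's consensus correlation 0.53). The reported contrasts from the 12 combinations left this pairing out. For them the time point as a random replicate block was run as an alternative. Alternatives were other pseudocounts, filters, scalings and replicate blocks, other definitions of the phases and each library left out.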

Additional observations from a re-analysis of the deposited data

Results flagged for a closer look

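The change of AMT6 from replete to late starvation differed between the strains. The interaction, sta6 minus CC-4349, was 1.62 on the log2(RPKM + 1) scale (SE 0.35, limma adjusted p = 0.00648). AMT6 averaged 3.14 RPKM in late starvation and 2.11 RPKM in replete cells of sta6, and 0.402 RPKM in late starvation and 2.42 RPKM in replete cells of CC-4349. It rests on 983 and 131 reads in the late and replete libraries of sta6 and on 84 and 280 reads in those of CC-4349. The fold change in RPKM was 1.49 in sta6 and 0.166 in CC-4349. AMT6 passed the filter on low values only through its level in sta6, so the call is no independent support for a strain difference. Depth and other factors were not tested as a cause. A search for single libraries far from the rest of their group could be made in the late boost alone, the only phase with 4 libraries per strain. It covered the 5 genes in both strains, 10 sets of values, where chance flags about 1 in 20, and found 0.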

How the results depend on the processing

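Calls of AMT4, AMT5 and AMT8 in the 3 starvation comparisons kept their direction and passed under every alternative run. Calls that changed were mostly those of AMT6, whose level lies near the pseudocount. With a pseudocount of 0.1, and with voom on the recovered reads, limma called 1 gene in place of 0 for the strain difference, the early boost, the late boost and the strain difference in the late boost, each time AMT6. The count for late starvation by strain fell to 0 with a pseudocount of 5, and to 0 with a mean of at least 5 RPKM, where AMT6 was not tested. Leaving out each library in turn gave 0 to 2 calls for late starvation by strain and 0 to 1 for the strain difference in the late boost, with 1 (AMT6) when the sta6 library at 24 h of the boost was left out. The count of members with an onset fall in CC-4349, 1 as reported, was 0 with a pseudocount of 5 and 2 against the pre-wash library alone, where AMT7 joined at 0.5 h. The AMT7 call in early starvation missed 2-fold with a pseudocount of 5 (-0.91).

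Values that changed sign, none of them a call, follow, and the cause was not tested. For late starvation by strain AMT5 was 0.17 with a pseudocount of 0.1 and 1.05 with voom, and AMT4 was -0.35 with a pseudocount of 5 and -0.030 with 0 h of the boost left out. In the early boost AMT7 was 0.13 with median-of-ratios scaling, 0.00010 with quantile normalization and 0.044 with 0 h of the boost left out, and AMT8 was -0.083 without the 0 h and boost 0.5 h libraries. In the late boost AMT5 was 0.064, 0.037 and 0.051 and AMT4 0.024 and 0.069 under median-of-ratios scaling, quantile normalization (AMT5 alone) and 0 h of the boost left out. For early boost by strain AMT5 was -0.045 with median-of-ratios scaling, AMT7 was 0.0053 with quantile normalization and 0.027 with 0 h of the boost left out, and AMT8 was 0.035 with that library left out.

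Leaving out each library in turn, the ranges that crossed 0 were, for early starvation by strain, -1.02 to 2.68 for AMT4, -0.22 to 0.69 for AMT5, -0.013 to 0.29 for AMT7 and -1.72 to 0.66 for AMT8. For late starvation by strain they were -1.82 to 1.88 for AMT4 and -2.16 to 0.22 for AMT8. In the early boost they were -0.14 to 0.0093 for AMT7 and -0.0058 to 0.18 for AMT8, and in the late boost -0.12 to 0.027 for AMT4, -0.077 to 0.042 for AMT5 and -0.040 to 0.11 for AMT8. For early boost by strain they were -0.058 to 0.23 for AMT5, -0.20 to 0.10 for AMT7 and -0.27 to 0.11 for AMT8.

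With matched time points as a random replicate block, no call of a member changed. The block moved the count over all genes from the reported 16 to 269 for early starvation by strain, 415 to 1088 for late starvation by strain, 1 to 26 for early boost by strain and 84 to 47 for the late boost. Without the block the strain difference still called 0 members and 749 genes in place of 846. A pseudocount of 5 gave the lowest counts over all genes and voom the highest for early starvation (759 and 3060, against 1758 reported), middle starvation (1476 and 3940, against 2848), late starvation (2174 and 5574, against 4340), the early boost (50 and 546, against 186), the late boost (33 and 160, against 84) and the strain difference in the late boost (527 and 1557, against 1107). Leaving out each library in turn, the count over all genes ran from 1380 to 2589 for early starvation, 105 to 287 for the early boost, 5 to 214 for early starvation by strain, 223 to 755 for late starvation by strain and 0 to 8 for early boost by strain. The strain difference gave 366 genes with a pseudocount of 5 and 1387 with one of 0.1, against 846. Few reads limit AMT6 in CC-4349, with 1 to 47 in its 15 libraries from 0.5 h onward.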
